A study of Mus musculus with 15 samples.

Results

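The cerulein response of wild type mouse pancreas was described from 8 of the 15 arrays of the series, 4 from wild type mice given cerulein and 4 from wild type mice given saline, chosen by their labels alone. All were male C57BL/6J mice that had fasted for 18 h. Each was injected once into the peritoneum, with cerulein at 50 µg/kg or with the saline vehicle alone, and was killed 3 h later, although the labels give the saline group a time of 0 h. The whole pancreas was taken into RNAlater, and each array holds Cy3-labelled RNA of 1 numbered animal: saline animals 5 to 8 and cerulein animals 9 to 12. The age of the mice is not given in the sources used here, and a single dose and a single time were studied. The other 7 arrays come from transgenic mice that the series title ties to betacellulin, 3 given saline and 4 given cerulein. They entered here through the shared estimate of the spread and through a comparison of the responses at the end.

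Cerulein is a peptide analogue of cholecystokinin, the gut hormone that makes acinar cells release digestive enzymes. It acts through a Gq-coupled receptor that raises cytosolic calcium, and doses above those that give maximal secretion block secretion, disturb the apical actin web and activate trypsinogen within the cell, which is the basis of its use as a model of acute pancreatitis. Acinar cells make more protein than almost any other cell, so stress in the endoplasmic reticulum (ER), the integrated stress response through the transcription factor ATF4, and rapid induction of AP-1 factors and chemokines are well-known features of the model.

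A level below is the log2 signal of a gene's brightest probe minus the 75th percentile of its array, so 0 is a probe at that percentile. Differences are cerulein minus saline on the log2 scale, with the standard error (SE) from limma, 4 animals in each group, and a two-sided adjusted p over 17338 genes. The 8 arrays lay unevenly on 3 slides: slide 1 held saline 5 and cerulein 9, slide 2 held cerulein 11 and 12 and no wild type saline array, and slide 3 held saline 6, 7 and 8 and cerulein 10. "Rose" and "fell" are therefore kept for genes with an adjusted p below 0.05 in the same direction both without slide in the model and with slide as a block. The share of probes well above background ran from 54.9% to 65.3% in the saline group and from 65.1% to 76% in the cerulein group, and the 75th percentile ran from 152.2 to 237.3 and from 201.2 to 410 intensity units. Defining genes of the labelled tissue were high: the mean level of 29 digestive enzymes and other acinar products lay 10.28 to 10.97 above the 75th percentile on the saline arrays and 9.53 to 10.63 above it on the cerulein arrays.

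By this rule 912 genes rose and 1039 fell, which is 5.26% and 5.99% of the genes tested. In either direction the share was 11.3%, and the counts of each gene list below are to be read against these shares. A list near or below them gives no result about its members as a set. Without slide alone 977 were higher and 1448 lower (5.64% and 8.35%), and with slide 2385 were higher and 1350 lower (13.8% and 7.79%). Higher genes were 40.3% of the calls without slide, 63.9% with slide, 28.9% with normexp background correction and 88% when arrays were scaled on spike-in probes. Of the genes that rose, 744 changed at least 2-fold and 94 at least 8-fold. Of those that fell, 721 and 15 did so. By this rule fewer genes rose than fell, but with slide alone or with spike-in scaling more were higher than lower. The genes that rose reached larger differences. Among the genes that rose, the saline and cerulein arrays did not overlap for 856, and among those that fell for 879, where 7.34% and 10.1% of all genes had groups that did not overlap in those directions. The sign was the same within slide 1 and within slide 3 for 911 of the 912 and for 1034 of the 1039. Only these slides hold both wild type groups, and the fit with slide draws on them. The agreement is therefore partly built into the rule and is not separate support. The number that fell was 585, 593 and 679 when saline 6, 7 or 8 was left out of both fits, and 411 without cerulein 10, after which slide 1 is the only slide that holds both wild type groups. The median of all genes was -0.06, and it was 0.54 with spike-in scaling and -0.25 with scaling on array medians, which each move all genes of an array together, so differences under them are best read against that median. With normexp the median was -0.23, and single genes near background moved by more or less than that.

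**Figure D1:**
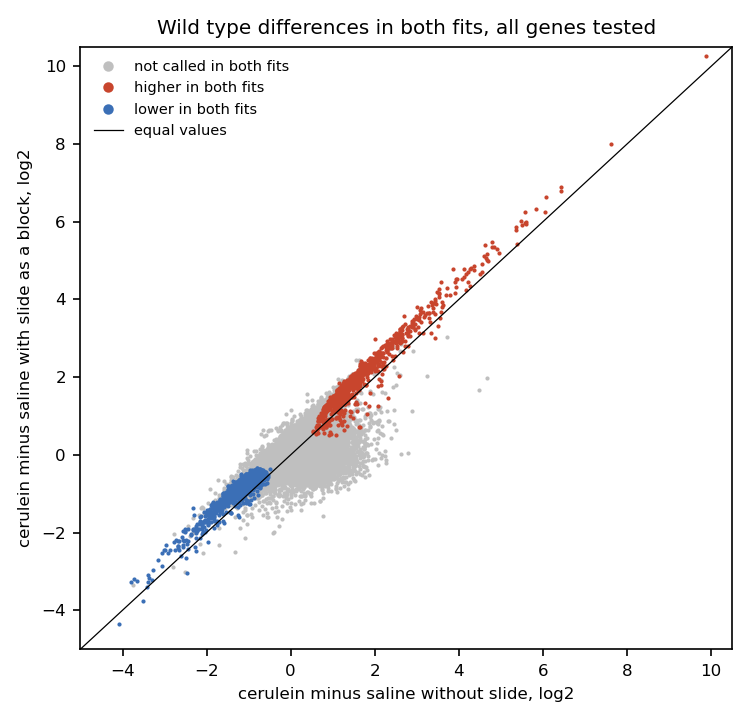
Each point is 1 of the 17338 genes: the horizontal axis gives cerulein minus saline (log2) without slide in the model and the vertical axis the same with slide as a block, with a line of equal values. The 912 genes that rose (red) reach 9.89 on the horizontal axis, and the 1039 that fell (blue) reach -4.08. The genes not called in both fits (grey) lie on both sides of 0 and include large differences, such as 3.25 for Vmn1r170 and -2.32 for Cxcl10.

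Atf3, a transcription factor of the ATF and CREB family that many stresses induce, had the highest difference of any gene. Its levels were -3.89, -3.22, -3.85 and -3.96 in saline animals 5 to 8, and 6.22, 6.89, 5.49 and 6.04 in cerulein animals 9 to 12. The groups lay far apart, and the probe was well above background on 2 of the 4 saline arrays and on all 4 cerulein arrays. The difference was 9.89 ± 0.29 (adjusted p = 5.12e-11), and 10.27 with slide as a block. Rcan1, an inhibitor of the calcium-activated phosphatase calcineurin that calcineurin itself induces, stood at -1.25, -0.62, -0.84 and -1.05 after saline and at 5.36, 6.61, 4.21 and 5.77 after cerulein (6.43 ± 0.39, adjusted p = 2.23e-07). The lowest cerulein animal, 11, still lay more than 4 log2 units above every saline animal. Gadd45a, a growth arrest gene, rose by 5.84 ± 0.33 from levels of -2.97, -2.83, -2.4 and -2.54 to 3.46, 3.92, 2.15 and 3.07. Kel, a membrane metalloprotease known from red cells, rose by 7.63 ± 0.45 (adjusted p = 1.94e-07), from between -3.96 and -3.32 to between 2.74 and 4.82. Eppk1, a plakin that binds keratin filaments, rose by 5.59 ± 0.38, and S100g, a vitamin D-dependent calcium-binding protein, by 5.51 ± 1.02. S100g was the most uneven of these, with 2.57, 3.95, 3.51 and 0.64 in cerulein animals 9 to 12 against -2.94 to -2.69 after saline, and without cerulein 10 (5.08) its call was lost in the fit with slide.

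The lowest differences belonged to genes of varied function. Sostdc1, which encodes an extracellular inhibitor of BMPs and WNTs, had levels of 3.24, 3.72, 4.25 and 3.56 after saline and -0.38, -1.49, 0.25 and 0.09 after cerulein. It fell by 4.08 ± 0.39 (adjusted p = 1.26e-05), and its other kept probe gave -4.81. Plk2, a Polo-like kinase gene, fell by 3.42 ± 0.34 from levels between 0.74 and 1.02 to levels between -3.08 and -1.96. No cerulein animal came near the saline range for either gene. Fam13a fell by 3.39 ± 0.24, N4bp2l1 by 3.72 ± 0.42, Ypel2 by 3.65 ± 0.41 and Acvr1c, a receptor for TGF-beta family ligands, by 3.15 ± 0.37. For these 4 genes every cerulein array lay below every saline array. Only genes with groups that do not overlap could be named as highest or lowest. The separation in the genes of this paragraph therefore follows from the choice and is not separate support.

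**Figure D2:**
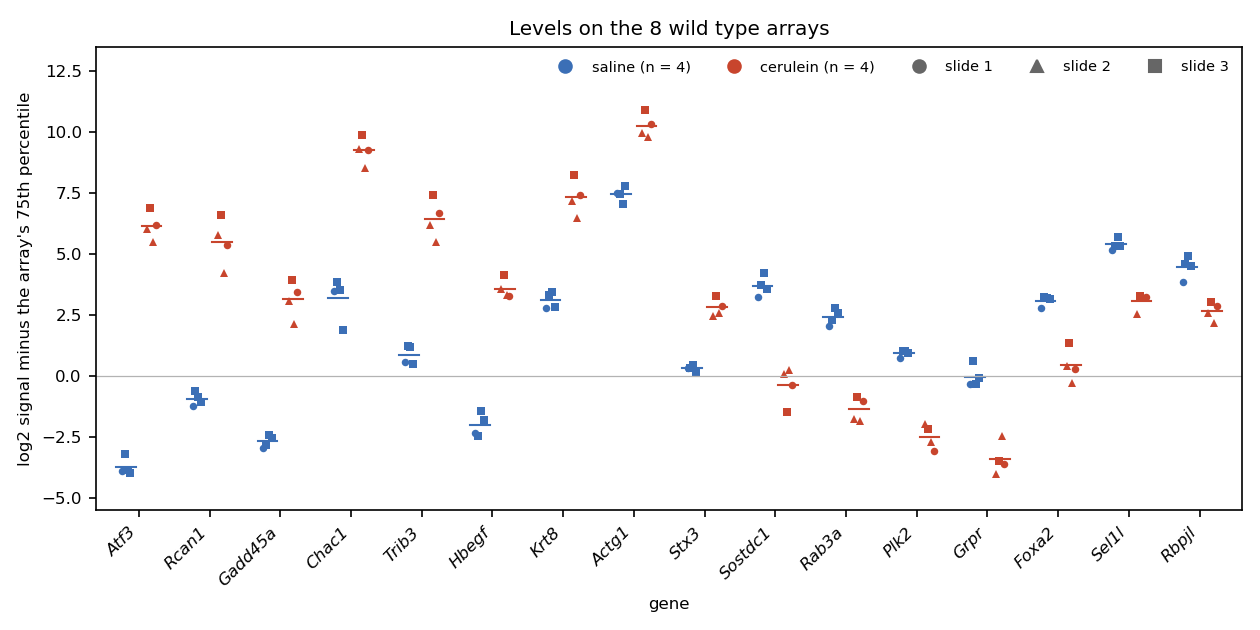
Levels of 16 genes on the 8 wild type arrays (log2 signal minus the array's 75th percentile): saline animals are blue, cerulein animals red, the symbol gives the slide and the bar the group mean of 4. In each gene the groups do not overlap, from Atf3 with means of -3.73 and 6.16 to Rbpjl, one of the smaller differences drawn, at -1.81.

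The largest share of members that moved was among AP-1 and related factors, dimers of basic leucine zipper proteins that are transcribed soon after a stimulus. Of 13 tested, 10 rose and 0 fell, where 5.26% of all genes rose, and the median difference of the 13 was 2.44 against -0.06 over all genes. Jun rose by 3.92 ± 0.45, from 1.18, 2.14, 1.74 and 1.6 to 5.79, 6.61, 4.12 and 5.79. Fos was well above background on 1 of 4 saline arrays and all 4 cerulein arrays, with levels of -3.87, -6.17, -4.81 and -4.3 against -0.73, 1.06, -1.75 and 1.08 (4.7 ± 0.74, adjusted p = 0.000852). Both groups were wide for Fos, yet the highest saline array lay below the lowest cerulein array. Fosl1, above background on 2 saline arrays, rose by 2.78 ± 0.46, and of the members named only after their values were seen Junb rose by 2.72 ± 0.29, Jund by 2.44, and the small Maf factors Maff and Mafk, which have no activation domain of their own, by 2.48 and 2.06. Fosb, a close relative of Fos, differed by -0.6 ± 0.29 (adjusted p = 0.176), or -0.96 with slide (adjusted p = 0.0247). Without cerulein 10, 8 of the 13 rose, and the calls of Fos (4.32) and Fosl1 (2.55) were lost in the fit with slide.

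Other immediate early regulators followed the same course, with 13 of 23 risen and 0 fallen (median 2.11). Csrnp1, a nuclear protein induced by AXIN1, rose by 4.64 ± 0.31, from -0.53, -1, -0.16 and 0.27 to 4.17, 4.98, 3.83 and 4.17. Klf6, a zinc finger factor, rose by 4.29 ± 0.34 and Egr1, a serum-induced zinc finger factor, by 4.12 ± 0.61, with cerulein levels of 2.85, 4.24, 1.4 and 3.9 above saline levels between -2.38 and -0.53. The orphan nuclear receptor Nr4a3 was not well above background on any saline array and was above it on all 4 cerulein arrays, and rose at least 3.25-fold. The fold is a lower bound because the saline level is set at the lowest signal that counts as well above background, or at the probe's own signal where that is higher. Srf, the serum response factor, rose by 2.91 ± 0.32 (adjusted p = 3.79e-05), Crem by 3.37 and Cebpb by 2.88, all 3 chosen after their values were seen. Myc was at 0.52 to 1.44 after saline and 1.41 to 2.55 after cerulein (0.9 ± 0.31, adjusted p = 0.0639), and its adjusted p with slide was 0.00259.

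Genes of growth arrest and of messenger RNA decay split in direction, with 5 of 12 risen and 2 fallen. Btg2, an antiproliferative gene, rose by 3.44 ± 0.31 from 1.52 to 2.62 up to 5.18 to 6.42. Zfp36, which binds AU-rich elements and hastens decay of cytokine messages, rose by 3.06 ± 0.48, and Zc3h12a, an endoribonuclease with similar targets, by 2.6. Tob1, a relative of Btg2, fell by 2.67 ± 0.32, from 3.74, 4.05, 4.22 and 4.02 to 0.98, 2.07, 1.42 and 0.88. Relatives within 1 family thus moved opposite ways: Gadd45a rose while Gadd45g fell by 1.75 ± 0.39, a call lost in the fit with slide without cerulein 10 (-1.93). Among targets of p53 and Polo-like kinases, 4 of 14 rose and 1, Plk2, fell. Trp53inp1 rose by 3.93 ± 0.41, Plk3 by 3.06 ± 0.33 and the cell cycle inhibitor Cdkn1a by 3.45 ± 0.3, although the other kept probe of Cdkn1a gave 0.27. Of the Bcl2 family, which governs release of cytochrome c from mitochondria, 3 of 17 rose and 0 fell. They were both death-promoting (Bbc3, 2.1 ± 0.27, and Hrk, 2.14 ± 0.52, which was well above background on 1 saline array) and protective (Bcl2l1, 1.45 ± 0.34). Hrk differed by 0.01 with normexp, and its call was lost when any wild type array but saline 5 was left out of both fits (1.72 to 2.22).

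ERK signalling is limited by dual-specificity phosphatases and Spry proteins, many of which ERK itself induces. Of 15 tested, 5 rose and 1 fell. Dusp8, which prefers JNK and p38, stood at -2.39, -0.95, -0.66 and -1.46 after saline and at 3.7, 4.4, 2.66 and 2.88 after cerulein (4.78 ± 0.41, adjusted p = 4.73e-06). Dusp14 rose by 4.18 ± 0.42 and Dusp5 by 2.62 ± 0.38 (0.57 and not called with normexp), each from well above background on 1 of 4 saline arrays, and Dusp1 rose by 1.85 ± 0.22. Dusp7 fell by 1.7 ± 0.26. The median of 0.38 turned to -0.15 with normexp, where that of all genes was -0.23.

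In the ERBB family, to which the series title points, 4 of 14 tested members rose and 1 fell. With cerulein 10 left out of both fits 2 rose, and without saline 5, 6 or 7 or cerulein 9 or 11 none fell. Hbegf, a ligand of EGFR and ERBB4, had levels of -2.35, -2.48, -1.42 and -1.8 in saline animals and 3.28, 4.16, 3.33 and 3.57 in cerulein animals. It rose by 5.6 ± 0.3 (adjusted p = 1.39e-07), about as far above saline in all 4 animals. Egfr rose by 2.51 ± 0.37, from -0.47, 0.46, 0.4 and 0.56 to 3.09, 3.63, 1.93 and 2.35. Its other 2 kept probes gave 0.5 and 0.85. Erbb3 rose by 1.55 ± 0.33 from levels well above background on 2 saline arrays, its difference was 0.1 with normexp, and without cerulein 10 (1.37) its call was lost in the fit with slide. Btc, the betacellulin gene, had levels of -4.19, -3.63, -5.53 and -4.3 after saline, above background on 1 array, and -2.83, -1.81, -3.34 and -3.49 after cerulein, above background on all 4. Its difference was 1.55 ± 0.45 (adjusted p = 0.0331), and the call was lost without saline 7 (1.17), saline 8 (1.58), cerulein 9 (1.53) or cerulein 10 (1.2). Erbb2 differed by 0.35 ± 0.28 (adjusted p = 0.408). Erbb4 and the ligands Areg, Ereg and Nrg3 were not well above background on 3 arrays and were not tested.

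Actin and the genes that serum response factor controls form a further group. Of 25 tested, 12 rose and 0 fell (median 0.95). Actg1, cytoplasmic gamma actin, had levels of 7.51, 7.46, 7.04 and 7.8 after saline and 10.33, 10.93, 9.79 and 9.99 after cerulein (2.8 ± 0.26, adjusted p = 9.89e-06), and its 4 other kept probes gave 2.89 to 4.27. Tpm4, a tropomyosin, rose by 3.52 ± 0.35, and the focal adhesion proteins vinculin (Vcl) and zyxin (Zyx) by 2.8 ± 0.31 and 2.76 ± 0.31. Vil1, a bundler of microvillus actin named after its values were known, rose by 2.53 ± 0.46. The smooth muscle members did not pass the test: Acta2 differed by -0.03, Tagln by -0.46 and Myl9 by -0.36. Actin genes are known targets of serum response factor, which binds the CArG box. Promoter stretches of 4 genes that rose are shown because each holds that box, in capitals. They are 100 bases long and come from RefSeq promoters of GRCm38.p6, written 5′ to 3′ on the gene's strand.
Srf, chr17:46556180-46556279, minus strand: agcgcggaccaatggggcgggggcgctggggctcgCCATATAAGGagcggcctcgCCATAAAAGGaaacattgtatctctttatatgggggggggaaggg
Actg1, chr11:120348531-120348630, minus strand: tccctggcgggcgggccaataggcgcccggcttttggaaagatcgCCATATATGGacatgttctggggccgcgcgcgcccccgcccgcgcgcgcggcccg
Vil1, chr1:74409266-74409365, plus strand: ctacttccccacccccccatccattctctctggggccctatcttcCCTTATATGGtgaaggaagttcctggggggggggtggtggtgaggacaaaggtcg
Zfp36, chr7:28379232-28379331, minus strand: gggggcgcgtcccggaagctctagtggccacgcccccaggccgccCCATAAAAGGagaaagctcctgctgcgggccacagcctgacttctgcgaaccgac
The first base of the box lies 82 and 62 bases before the start of Srf, 90 before that of Actg1, 73 before Vil1 and 58 before Zfp36. On both strands of the 250 bases before the start, the CArG box was found for 7 of 22 members of the list that had a promoter entry (31.8%), and for 222 of 13758 tested genes (1.61%). The list holds known targets of serum response factor, so its share partly follows from how it was made. Among all 32851 entries the share was 1.47%, among genes that rose 3.48% and among genes that fell 1.1%. Not all members with the box rose: Myl9, Cnn2 and Lima1 hold it and differed by -0.36, -0.07 and -0.78.

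Targets of YAP, a coactivator that enters the nucleus when the actin cytoskeleton is under tension, included 7 of 14 that rose and 0 that fell. Ccn1, a matricellular protein, stood at -2.26, -2.65, -2.86 and -2.51 after saline and 1.38, 2.58, 1.73 and 1.48 after cerulein (4.36 ± 0.43). Ankrd1 rose by 4.26 ± 0.6 from above background on 2 saline arrays, Amotl1 by 2.14 ± 0.21 and F3, tissue factor, by 1.77 ± 0.31. Their median of 0.4 held its sign under every scaling.

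Genes of epithelial junctions had more called members than most lists, with 14 of 29 risen and 2 fallen. Ocln, the occludin of tight junctions, which seal the space between cells, rose by 2.12 ± 0.29. Cdh1, the E-cadherin of adherens junctions, rose by 2.27 ± 0.32 from levels between 0.9 and 1.49 to levels between 2.73 and 4.27. Cldn4 and Tjp1, chosen after their values were seen, rose by 1.97 and 1.75. In every one of these genes the 4 cerulein animals lay above the 4 saline animals. Claudins did not move as a block: Cldn8 fell by 2.57 ± 0.28 and Cldn10 by 1.5 ± 0.29. Array median scaling left 7 members higher and 2 lower without slide. Leaving out saline 8 from both fits left 9 risen.

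Among 19 duct and metaplasia genes, which include keratins of simple epithelia, 5 rose and 1 fell. Krt8 had levels of 2.81, 3.34, 3.46 and 2.84 after saline and 7.44, 8.24, 6.47 and 7.17 after cerulein (4.21 ± 0.36), and its partner Krt18 rose by 1.7 ± 0.32. Krt20 rose by 2.88 ± 0.62. Krt17, which is not on the list, was above background on no saline array and on every cerulein array, and rose at least 6.23-fold. Without cerulein 10 the calls of Krt20 (2.44) and Krt17 (3.42) were lost in the fit with slide. The ductal keratins Krt19 and Krt7 differed by 0.77 and 0.29 and did not pass the test. Sox9, the duct and progenitor transcription factor, fell by 1.68 ± 0.32, from -0.82, -0.17, -0.09 and -0.15 to -1.83, -1.31, -2.75 and -2.05.

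The integrated stress response slows translation through phosphorylation of eIF2 alpha and favours synthesis of ATF4, which induces genes of amino acid supply and of cell death. Of 23 targets 9 rose and 1 fell, or 17 and 1 in the fit with slide alone, and the median was 0.9 (1.44 with slide). The 1 that fell, Aldh1l2, a mitochondrial folate enzyme, lost its call without any 1 wild type array but cerulein 12 (-1.89 to -1.25). Chac1, which degrades glutathione, was already well expressed after saline at 3.5, 3.84, 3.53 and 1.88 and reached 9.26, 9.88, 8.55 and 9.32 (6.07 ± 0.65, adjusted p = 3.58e-05). Saline 8 was the lowest of its group by more than 1.5 log2 units. Trib3, a pseudokinase that restrains ATF4, rose by 5.58 ± 0.47, from 0.59, 1.23, 1.2 and 0.5 to 6.67, 7.44, 5.51 and 6.21. Gdf15, a secreted stress hormone, rose by 4.13 ± 0.54. Named after their values were seen, Ppp1r15a, the phosphatase subunit that ends the response, rose by 2.37 ± 0.34, Ddit3 (CHOP) by 2.27 ± 0.35 and Atf4 itself by 1.78 ± 0.36. Slc7a11, the cystine transporter, rose by 2.56 ± 0.64 (adjusted p = 0.0166), and its call was lost without saline 8 (2.09), cerulein 9 (2.44) or cerulein 10 (2.43). Enzymes of serine and asparagine synthesis showed no such difference without slide: Asns, Phgdh and Psat1 differed by 0.01, -0.03 and 0.11.

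Promoter stretches of 5 genes are shown because each holds the ATF4-type element TGATGNAA, in capitals, on 1 strand or the other, while their differences ran from 9.89 to 0.01.
Atf3, chr1:191183390-191183489, minus strand: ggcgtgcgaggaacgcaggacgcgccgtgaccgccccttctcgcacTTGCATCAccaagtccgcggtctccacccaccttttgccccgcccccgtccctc
Chac1, chr2:119351003-119351102, plus strand: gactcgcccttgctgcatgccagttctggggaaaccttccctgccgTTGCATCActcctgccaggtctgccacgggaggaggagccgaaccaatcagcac
Slc7a11, chr3:50443617-50443716, minus strand: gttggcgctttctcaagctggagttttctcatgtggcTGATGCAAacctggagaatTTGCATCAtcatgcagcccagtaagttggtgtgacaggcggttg
Aars, chr8:111033684-111033783, plus strand: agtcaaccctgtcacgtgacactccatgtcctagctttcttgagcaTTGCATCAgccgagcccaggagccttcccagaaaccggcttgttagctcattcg
Asns, chr6:7693210-7693309, minus strand: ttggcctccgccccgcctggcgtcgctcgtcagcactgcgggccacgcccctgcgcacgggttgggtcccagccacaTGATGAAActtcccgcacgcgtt
The element begins 110 bases before the start of Atf3, 193 before that of Chac1, 66 and 47 before Slc7a11, 112 before Aars and 23 before Asns. It was found for 5 of 20 integrated stress response targets with an entry (25%), for 3 of 13 cytosolic tRNA synthetases (23.1%) and for 410 of 13758 tested genes (2.98%). The first list was made of targets of ATF4, so its share partly follows from that choice. Asns carried the element and differed by 0.01 ± 0.34.

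Aminoacyl-tRNA synthetases and amino acid transporters are partly under ATF4. Of 20 cytosolic synthetases 2 rose and 0 fell, 1 of them when saline 5, saline 8 or cerulein 9 was left out, and with slide alone 9 were higher. Aars went from 0.39, 1.19, 1.14 and 0.77 to 2.65, 3.08, 1.81 and 2.17 (1.56 ± 0.34), although its other kept probe gave -0.38. Of 25 transporters 1, Slc7a11, rose and 1 fell (8%, against 11.3% of all genes). None rose without saline 8 or cerulein 9 or 10. The transporter that fell was Slc38a9, the lysosomal arginine sensor. It fell by 2.26 ± 0.32 from between -0.68 and 0.26 to between -2.87 and -1.81.

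ER chaperones and ER-associated degradation factors, the classical targets of the unfolded protein response, went the other way. Of 32 tested, 2 rose and 13 fell, and the median was -0.96 (-0.46 with slide, -0.36 with spike-in scaling). Sel1l, the scaffold of the degradation complex, had levels of 5.17, 5.35, 5.72 and 5.35 after saline and 3.23, 3.28, 3.27 and 2.56 after cerulein (-2.31 ± 0.31, adjusted p = 0.000221). Derl3, a channel component of the same complex found in secretory cells, fell by 1.69 ± 0.34, from 4.92, 5.57, 5.76 and 5.37 to 3.68, 4.02, 3.29 and 3.86. All 4 cerulein animals were below all saline animals in both genes. Erlec1, an ER lectin, fell by 1.85 ± 0.37, the disulphide isomerase Pdia4 by 1.59 ± 0.36, and, among members chosen after their values were seen, calreticulin (Calr) by 1.51 ± 0.3 and the co-chaperone Dnajc3 by 1.59 ± 0.33. The 2 members that rose were sensors of ER stress: Ern1 (IRE1), by 1.4 ± 0.29, and Eif2ak3 (PERK), by 1.11 ± 0.25. Hspa5 (BiP), the main ER chaperone, was at 6.55, 7.51, 7.61 and 7.25 after saline and 7.61, 7.74, 7.01 and 7.15 after cerulein. These ranges overlapped, and its difference was 0.15 ± 0.33 (adjusted p = 0.771), or 0.7 with slide (adjusted p = 0.019). Without cerulein 10 in either fit, 6 of the 32 fell, and Derl3 (-1.8), Pdia4 (-1.64) and Calr (-1.53) were no longer called in the fit with slide.

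Promoter stretches of 4 of these genes are shown because each holds the ER stress response element (CCAAT and CCACG with 9 bases between them), in capitals on 1 strand or the other, and because 3 of them fell and the fourth, Hspa5, did not pass the test.
Hspa5, chr2:34771984-34772083, plus strand: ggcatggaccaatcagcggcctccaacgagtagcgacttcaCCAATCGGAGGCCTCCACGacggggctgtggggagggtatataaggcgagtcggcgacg
Calr, chr8:84847035-84847134, minus strand: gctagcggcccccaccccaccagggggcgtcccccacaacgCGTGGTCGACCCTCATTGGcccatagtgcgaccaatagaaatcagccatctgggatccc
Dnajc3, chr14:118937786-118937885, plus strand: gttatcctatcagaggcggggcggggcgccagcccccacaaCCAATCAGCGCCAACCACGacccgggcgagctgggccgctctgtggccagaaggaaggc
Derl3, chr10:75893201-75893300, plus strand: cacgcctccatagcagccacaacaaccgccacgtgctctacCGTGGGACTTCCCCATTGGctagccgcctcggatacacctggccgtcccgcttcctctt
The first base of the element lies 65 bases before the start of Hspa5, 162 before that of Calr, 105 before Dnajc3 and 156 before Derl3. The element was found for 10 of 27 members with an entry (37%), for 20 of 13758 tested genes (0.145%) and for 37 of 32851 entries (0.113%). The list holds classical targets of the unfolded protein response, so its share partly follows from how it was made. Of the 10 members with the element, Hsp90b1, Calr, Dnajc3, Syvn1, Derl3 and Ero1b fell. Hspa5, Canx, Pdia6 and Creld2 were not called, and none rose. Derl3 (-1.8), Calr (-1.53), Syvn1 (-1.31) and Hsp90b1 (-1.26) lost their calls in the fit with slide without cerulein 10, and Hsp90b1 also without saline 6, 7 or 8 or cerulein 9, 11 or 12 (-1.15 to -1.01).

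**Figure D3:**
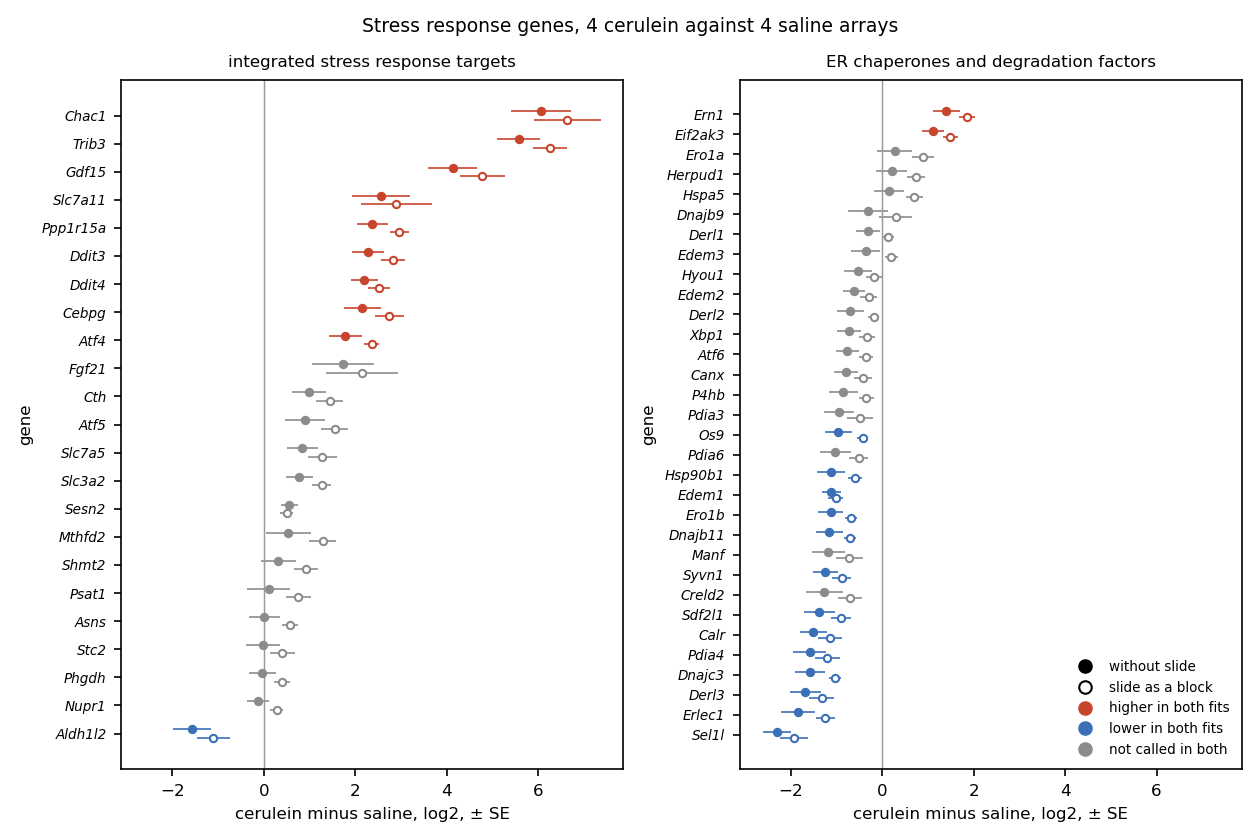
Cerulein minus saline (log2) with SE for 23 integrated stress response targets on the left and 32 ER chaperones and degradation factors on the right: filled points are without slide, open points with slide as a block, n = 4 and 4. On the left 9 genes rose, led by Chac1 at 6.07, and on the right 13 fell, down to -2.31 for Sel1l. The list medians of 0.9 and -0.96 kept their signs under every scaling.

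The rest of the early secretory pathway was lower by less, and mostly below the threshold. All but 1 of 28 translocon, signal peptidase and oligosaccharyltransferase genes had a negative difference (median -0.74, -0.26 with slide, -0.14 with spike-in scaling), yet 0 rose or fell. Without slide limma called 2 of them lower, and 14 when cerulein 10 was left out. Of 33 genes of ER to Golgi transport 0 rose and 2 fell (6.06%, where 5.99% of all genes fell). The number that fell was 0 without cerulein 10 and 1 without saline 5, 6 or 7 or cerulein 11. Creb3l1, a membrane-bound transcription factor of the secretory pathway, was the lowest, at 1.88, 2.69, 2.84 and 2.14 after saline and 1.07, 1.14, 0.84 and 0.68 after cerulein (-1.45 ± 0.31, and without cerulein 10, -1.52, no longer called with slide). The list's median was -0.49 but 0.11 with spike-in scaling, where that of all genes was 0.54.

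Cytosolic heat shock proteins rose in part, 7 of 22 with 0 fallen, and 13 were higher with slide alone. Hspa1a (HSP70) had levels of -1.73, -3.49, -3.42 and -3.49 after saline and 1.98, 3.34, -0.61 and 1.58 after cerulein (4.6 ± 0.93, adjusted p = 0.0045). Cerulein 11 was well below the other 3 but above every saline animal, and without cerulein 10 (4.01) the call was lost in the fit with slide. Hspa4l rose by 3.94 ± 0.37, and the small heat shock proteins Hspb8 and Hspb1, which hold unfolded proteins in solution, by 2.9 ± 0.26 and 2.6 ± 0.4. Hspa8, the constitutive HSC70, differed by 0.56 ± 0.39.

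The receptors and effectors through which cerulein and other secretagogues act showed both directions, with 2 of 21 risen and 2 fallen. Tac1, which encodes substance P, was above background on no saline array and on all 4 cerulein arrays, at 0.78, 0.65, -3.64 and 1.4. Cerulein 11 was thus far below the others, and the rise was at least 13.8-fold. Grpr, the receptor for gastrin-releasing peptide, fell by 3.37 ± 0.55, from -0.33, 0.62, -0.32 and -0.08 to -3.61, -3.5, -2.46 and -4.03. Cckar, the cholecystokinin receptor of acinar cells, had levels of 5.24, 5.64, 5.7 and 5.67 after saline and 3.6, 4.81, 4.59 and 3.1 after cerulein. Its ranges did not overlap and its difference was -1.53 ± 0.38 (adjusted p = 0.0155), but with slide it was -1.11 (adjusted p = 0.0683). Plcb1, a phospholipase C that Gq activates, fell by 1.41 ± 0.31, and its call was lost without saline 6, 7 or 8 or cerulein 9 or 10 (-1.54 to -1.33). The calls of Tac1 (5.76) and Grpr (-3.34) were lost in the fit with slide without cerulein 10, which left 1 risen and 0 fallen. Rgs2, which shortens Gq signals, rose by 1.88 ± 0.38, and its other kept probe gave 0.53. In the calcium and calcineurin list 2 of 23 rose, Rcan1 and its relative Rcan3 (1.59 ± 0.24), and 2, Nfatc1 and Nfatc2, fell. The call of Nfatc2 was lost without any 1 wild type array but cerulein 9 (-1.3 to -0.94). Nfatc1, a transcription factor that calcineurin activates, fell by 1.96 ± 0.36, while its other kept probe gave 0.5.

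Among 33 Rab proteins, SNAREs and regulators of zymogen granule exocytosis 1 rose and 5 fell. Rab3a, a small GTPase of docked vesicles, had levels of 2.06, 2.31, 2.8 and 2.57 after saline and -1.01, -0.85, -1.85 and -1.76 after cerulein (-3.8 ± 0.3, adjusted p = 2.33e-06). The zymogen granule form Rab3d differed by -0.1. Stxbp5 (tomosyn), which holds SNAREs inactive, was above background on 3 saline arrays and on no cerulein array, and fell at least 2.47-fold. Stxbp6 fell by 1.88 ± 0.32, and Vamp2, a vesicle SNARE, by 1.55. Stx3, a syntaxin of the granule and apical membranes, was the member that rose, from 0.32, 0.34, 0.46 and 0.15 to 2.89, 3.29, 2.59 and 2.48 (2.5 ± 0.25). The list's median was -0.46 but 0.14 with spike-in scaling, where that of all genes was 0.54. When cerulein 10 was left out of both fits 2 members fell. Those of Stxbp6 (-1.9) and Vamp2 (-1.68) were among the calls lost, and that of Vamp2 was also lost without cerulein 9 (-1.53).

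All 29 digestive enzymes and secretory products had negative differences, from -1.21 to -0.31, and 1 of them fell. This was Rnase1, pancreatic ribonuclease, at 9.76, 10.33, 10.44 and 10.15 after saline and 8.95, 9.57, 8.42 and 8.92 after cerulein (-1.21 ± 0.28, adjusted p = 0.0107). Amy2a5, pancreatic amylase, was at 11.06, 11.92, 11.92 and 11.57 and then 10.8, 11.59, 10.27 and 10.37, so that cerulein 10 lay within the saline range and the other 3 below it (-0.86 ± 0.32, adjusted p = 0.0892). The list's median was -0.8, but -0.25 with slide, -0.2 with spike-in scaling and 0.00 with quantile normalisation. Medians of all genes in those 3 settings were -0.06, 0.54 and -0.07. The list's median in single animals was -0.76 in cerulein 9, -0.06 in cerulein 10, -1.21 in cerulein 11 and -1.15 in cerulein 12. Without cerulein 10, limma without slide called 28 of the 29 lower. Cerulein 11 and 12 lie on slide 2, which holds no saline array, and the part of the slide in these values was not tested beyond the blocked fit. In whole tissue, fewer cells of a type and less RNA per cell cannot be told apart.

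Of 13 acinar transcription factors 1 rose and 3 fell. Foxa2 had levels of 2.78, 3.22, 3.2 and 3.18 after saline and 0.3, 1.35, -0.27 and 0.42 after cerulein (-2.65 ± 0.3, adjusted p = 5.39e-05). Rbpjl, the acinar partner of PTF1A in the complex that drives digestive enzyme genes, fell by 1.81 ± 0.28, from 3.87, 4.58, 4.91 and 4.53 to 2.86, 3.02, 2.18 and 2.58. Ptf1a itself was higher, at 5.71, 6.06, 5.1 and 5.29 against 3.92, 4.43, 4.67 and 4.47 (1.17 ± 0.32, adjusted p = 0.0281). Its call was lost without saline 5 (1.02), saline 6 (1.19), saline 8 (1.2) or cerulein 9 (1.11). Partners in 1 complex therefore differed in opposite directions. Bhlha15 (MIST1) differed by -1.24 ± 0.39 (adjusted p = 0.0466) and was not called with slide. Of 18 ion and water transport genes 0 rose and 2 fell, and 1 or 0 fell when any 1 of the 8 arrays was left out of both fits.

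**Figure D4:**
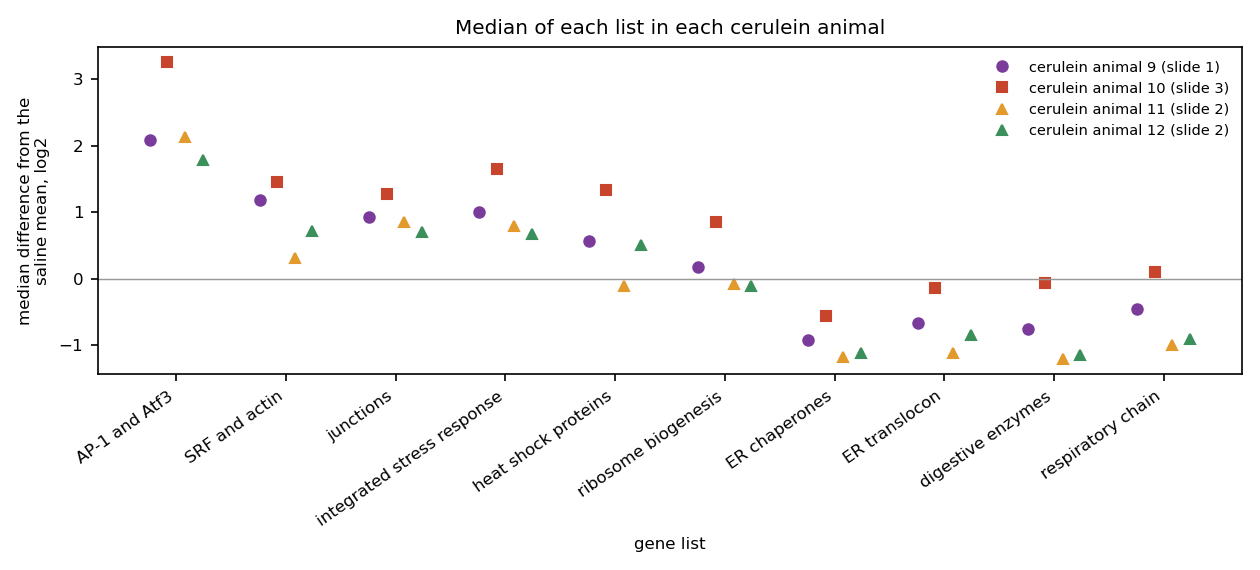
Median difference from the saline mean (log2) of 10 gene lists in each of the 4 cerulein animals, with the symbol giving the slide. Cerulein 10, on slide 3, is the highest animal in each of the 10 lists drawn: AP-1 factors have 3.26 in it against 1.79 to 2.13 in the others, and digestive enzymes -0.06 against -1.21 to -0.76. With spike-in scaling the median of the respiratory chain turns from -0.57 to 0.03, and with quantile normalisation that of digestive enzymes is 0.00. The median of all genes is -0.06 without slide, 0.54 with spike-in scaling and -0.07 with quantile normalisation.

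Cytokines, chemokines and their receptors included 10 of 34 that rose and 0 that fell. Ccl7, a chemokine for monocytes, was above background on no saline array and reached 0.1, 0.12, -1.06 and -0.04 in cerulein animals, at least 13.6-fold higher (adjusted p = 1.36e-06). Ccl2, which acts on the same receptor, stood at -1.96, -2.79, -2.99 and -1.98 and rose to 1.06, 0.68, 0.48 and 1.37 (3.33 ± 0.31). Cxcl1, a neutrophil chemokine, rose at least 4.68-fold from below background. Tnfrsf12a, the receptor of TWEAK, rose by 4.92 ± 0.31, from between 0.21 and 1.15 to between 4.88 and 6.32. For Ccl2, Ccl7 and Tnfrsf12a every cerulein array lay above every saline array. Il6 differed by 1.29 ± 0.77 (adjusted p = 0.263) and Cxcl10 by -2.32 ± 0.99 (adjusted p = 0.127), both with overlapping groups. Il1a, Il1b, Cxcl2, Cxcl3 and Ccl20 were not above background on 3 arrays. Over the list the median of 0.83 was -0.04 with normexp, where that of all genes was -0.23.

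NF-kB subunits and feedback genes moved less, with 3 of 21 risen and 0 fallen. Rela (p65) rose by 1.93 ± 0.26, from 3.89, 4.28, 4.31 and 4.36 to 6.29, 6.8, 5.7 and 5.77. The inhibitor Nfkbia differed by -0.45 ± 0.27. Of 15 Socs, Pim and Stat genes 2 rose and 0 fell, among them Stat5a (1.31 ± 0.28), and 1 of 2 remained when saline 5, 6, 7 or 8 or cerulein 9 or 10 was left out. Of 24 Reg and acute phase genes 2, Lcn2 and Saa3, rose and 0 fell (8.33%, against 11.3% of all genes in either direction). Saa3 was above background on no saline array and at least 3.38-fold higher. It lost its call without saline 5 (3.54), 6 (3.16) or 8 (3.07) or cerulein 9 (3.02), 10 (3.03) or 12 (3.23). Lcn2, a siderophore-binding protein, rose by 1.28 ± 0.26 from between -0.58 and 0.23 to between 0.68 and 1.51. Reg3b ranged from 6.52 to 9.77 after saline and from 7.61 to 9.33 after cerulein (0.85 ± 0.82). Of 21 matrix proteases and adhesion genes 4 rose and 1 fell. Plaur, the urokinase receptor, rose by 1.81 ± 0.31, and the aggrecanase relative Adamts9 fell by 2.23 ± 0.23 from between -0.62 and -0.13 to between -3.12 and -2.25. Without cerulein 10 in either fit, 1 member of that list rose, and without saline 5 there were 2.

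Markers of leukocytes were examined beside these values. Of 14 neutrophil markers 4 rose and 0 fell. S100a9 was at -2.9, -0.51, -4.05 and -4.18 after saline and -1.24, 1.31, 0 and -0.33 after cerulein, so that saline 6 lay above 1 cerulein animal. Its difference was 2.85 ± 0.71 (adjusted p = 0.0166), and it lost its call without saline 7 (2.47), saline 8 (2.42) or cerulein 10 (2.39). Clec4d, well above background on 1 of 4 saline arrays, rose by 2.49 ± 0.41, and without cerulein 10 (2.29) lost its call with slide. Mpo, the gene of the granule enzyme myeloperoxidase, transcribed mainly in neutrophil precursors, differed by 0.56 ± 0.42. The summed linear level of the 14 ran from 113 to 201 after saline and from 86.5 to 199 after cerulein. Most of that sum came from Csf3r, whose mean level was 7.26 after saline and 6.74 after cerulein. Of the 14 markers, 10 had a positive difference. Among the others Csf3r, Trem1 and Elane differed by -0.52, -0.53 and -0.62 and were not called. The number that rose was 2 without saline 7 or 8 and 1 without cerulein 10. Of 13 macrophage and monocyte markers 1 rose, Cd14 (1.36 ± 0.19). The summed level, which came mainly from Itgam and Csf1r, was 103 to 148 and 75.6 to 127. Of 13 lymphocyte markers 0 rose or fell (summed level 80.7 to 109 and 72.5 to 81.4, mainly from Cd4 and Cd3e). Cd4 and Cd3e varied little among saline animals (SD 0.14 and 0.08), but the list as a whole was uneven. Its mean level ran from -1.91 to 1.83 after saline and from -0.28 to 1.22 after cerulein. Cd3d, for example, was at 0.2, -0.86, -5.48 and 1.38 in saline animals 5 to 8. With such a spread a difference in these markers could be missed. The part of leukocytes in the chemokine values was not tested.

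Genes of metabolism and growth showed smaller differences. Of 25 sterol synthesis genes 6 rose and 1 fell, and 11 were higher with slide alone. The 1 that fell, Nsdhl, a sterol dehydrogenase, lost its call without any 1 wild type array but saline 7 (-0.98 to -0.88). Msmo1, a sterol oxidase, rose by 1.88 ± 0.36. The median of 0.31 was -0.07 with normexp, where that of all genes was -0.23. Of 35 ribosome biogenesis factors 7 rose and 0 fell, 4 without saline 5 or cerulein 9, and 16 were higher with slide alone. Nop58, a core protein of small nucleolar particles, rose by 1.64 ± 0.34 and Rrp12 by 1.29 ± 0.22. Sat1, which acetylates polyamines, rose by 1.79 ± 0.31 as the 1 of 9 polyamine genes that moved.

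Of 19 clock genes 4 rose and 0 fell. Nfil3, a repressor of D-box genes, went from 0.9, 1.85, 0.94 and 0.8 to 5.71, 6.34, 4.56 and 5.32 (4.37 ± 0.35). Ciart rose by 4.63 ± 0.66, from above background on 1 saline array to all 4 cerulein arrays. Core members such as Arntl and Per2 differed by -0.48 and 0.37. For clock genes the median of 0.37 was -0.06 with normexp, where that of all genes was -0.23. Genes of insulin, FoxO and fasting responses split evenly, 4 of 18 risen and 4 fallen. Ppargc1a, a coactivator of mitochondrial genes, rose by 2.09 ± 0.44, and the glucocorticoid-responsive kinase Sgk1 fell by 2.15 ± 0.41. Ppargc1b, the relative of Ppargc1a, was above background on all saline arrays and on no cerulein array, at least 4.46-fold lower; it is not on the list. With cerulein 10 left out of both fits 2 of the list rose and 2 fell, and Sgk1 (-2.35) and Ppargc1b (-3.04) lost their calls with slide.

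Of 20 antioxidant genes 1 rose and 1 fell (10%, against 11.3% of all genes called in either direction). Srxn1, sulfiredoxin, rose by 3.11 ± 0.36, from 0.36, -0.03, 0.18 and 0.04 to 3.31, 4.02, 2.22 and 3.45. Gclc, the catalytic subunit of the enzyme that limits glutathione synthesis, fell by 2.08 ± 0.34 to between -0.01 and 0.78 from between 1.49 and 3.28. These 2 targets of NRF2 differed in direction, and a further target, Hmox1, differed by 0.16. With a called share no higher than that of all genes, this is no result about NRF2 targets as a set. Of 29 autophagy genes 4 rose and 3 fell, with Atg4c, a protease for ATG8 proteins, lowest (-1.77 ± 0.33). None of the 4 that rose was called without saline 5, 7 or 8, 1 was called without saline 6 or cerulein 9, and 2 fell without cerulein 10. Of 18 lysosomal genes and of 35 respiratory chain and citric acid cycle genes 0 rose or fell. Without slide limma called 1 lower in each, and 21 of the 35 when cerulein 10 was left out. The median of the 35 was -0.57, -0.11 with slide and 0.03 with spike-in scaling, where that of all genes was 0.54.

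Among 28 genes of BMP, TGF-beta and Notch signalling 0 rose and 6 fell, or 3 when saline 6, 7 or 8 or cerulein 10, 11 or 12 was left out. Beside Sostdc1 these included the Notch ligand Jag1, at -0.75, -0.19, 0.12 and 0.23 after saline and -1.89, -1.61, -2.53 and -2.21 after cerulein (-1.91 ± 0.35). Smad6, an inhibitor of BMP signals, fell by 1.85 ± 0.36. Hes1, a Notch target counted with the duct genes, rose by 1.48.

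Markers of other cells that a whole pancreas holds were mostly below the threshold. Of 20 islet markers 0 rose and 2 fell (10%, against 11.3% of all genes in either direction). When any 1 of the 8 arrays was left out of both fits, 0 fell. Ins2, insulin, was at 8.52, 9.16, 9.38 and 9 after saline and 8.21, 9.02, 7.97 and 8.23 after cerulein (-0.66 ± 0.32, adjusted p = 0.171). Of 13 adipocyte markers 1, Acvr1c, fell, and their summed level was 58.4 to 112 after saline and 33.2 to 61 after cerulein. Of 5 mast cell markers 1, Kit, fell (-1.36 ± 0.26), and not in the fit with slide without cerulein 10 (-1.4). Among 13 fibroblast, 11 endothelial, 6 erythrocyte, 8 intestinal, 5 Schwann, 4 mesothelial and 5 hepatocyte markers 0 rose or fell.

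**Figure D5:**
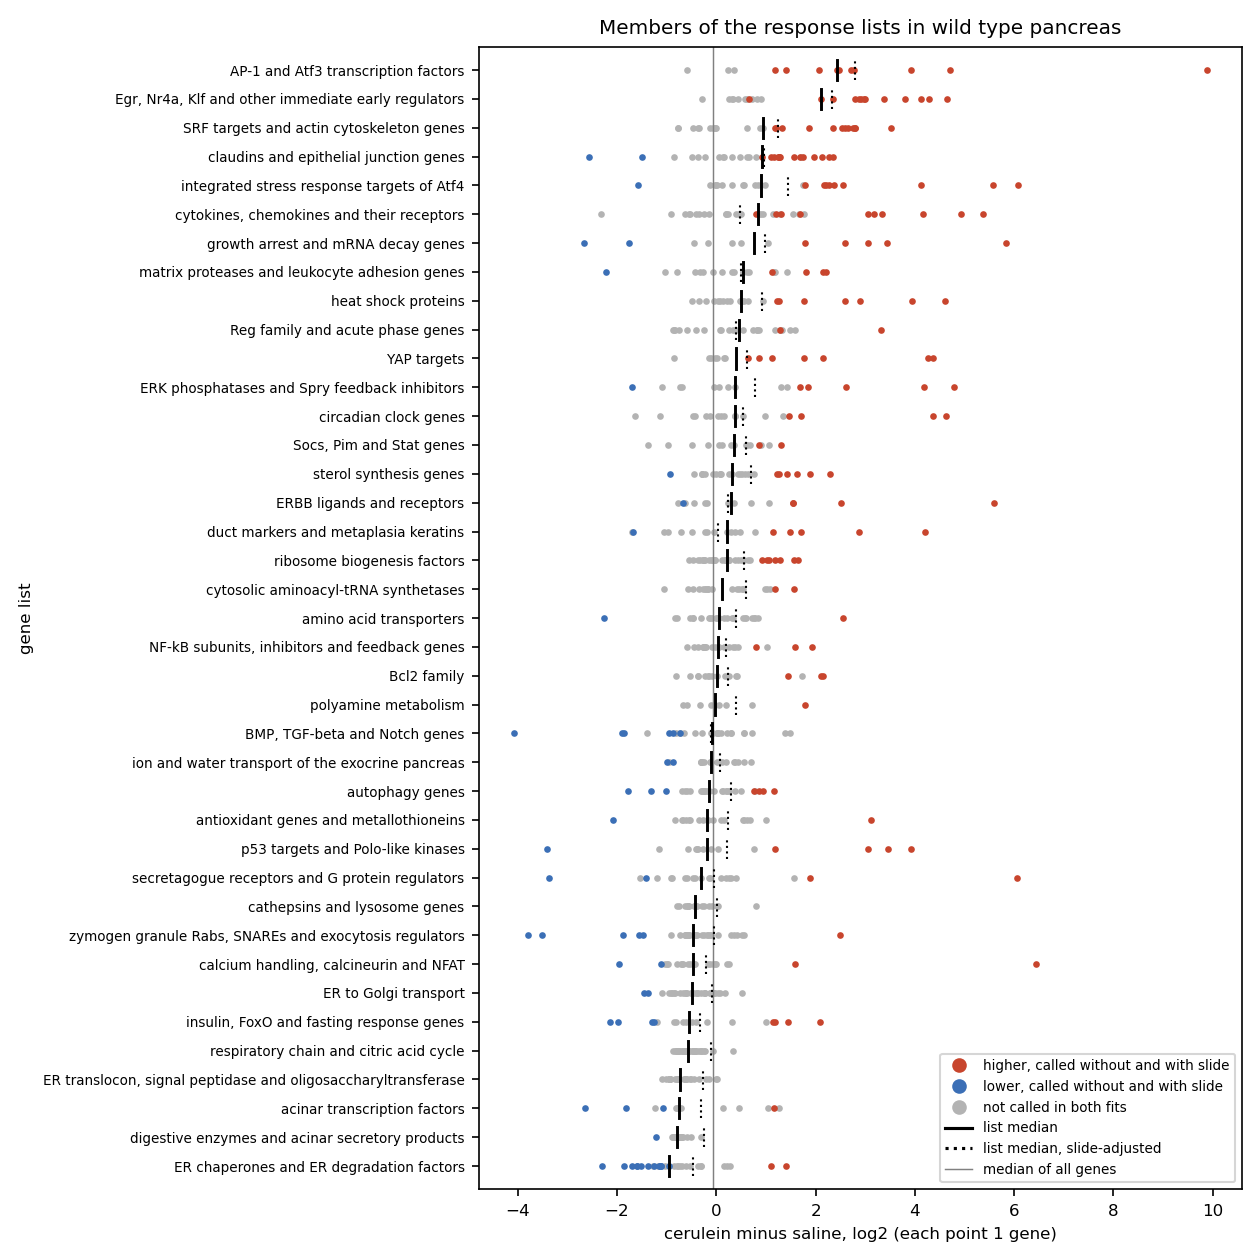
Cerulein minus saline (log2) of every tested member of the response lists, 1 point a gene, red if it rose, blue if it fell, grey otherwise; solid and dotted bars are list medians without and with slide, and the vertical line is the median of all genes (-0.06). AP-1 factors lie highest with a median of 2.44, and ER chaperones lowest with -0.96. Medians near 0 change sign with the scaling, among them those of sterol synthesis (0.31, and -0.07 with normexp) and exocytosis (-0.46, and 0.14 with spike-in scaling). The median of all genes is itself -0.23 with normexp and 0.54 with spike-in scaling. Against it, sterol synthesis stays higher and exocytosis stays lower.

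Some genes crossed the detection limit. Of all genes tested, 119 were well above background on all 4 cerulein arrays and on no saline array, and 41 of these rose. Beside Tac1, Ccl7 and Krt17 the largest lower bounds among them were those of Tdrd5, a germ line Tudor protein (at least 17.4-fold), Gm9926, a predicted gene (at least 11.4-fold), Mfsd2a, a transporter of lysophospholipids (at least 9.04-fold), Sync, an intermediate filament protein (at least 7.13-fold), and Hectd2, a ubiquitin ligase (at least 6.28-fold). Levels of Tdrd5 were 0.49, 0.9, -1.4 and 0.54 after cerulein, and its other kept probe gave 5.89. In the other direction 4 genes were above background on all saline and on no cerulein array, and all 4 fell: Ppargc1b, Rfxap (a subunit of the RFX complex of MHC class II genes, at least 4.28-fold), Brd8 and 9430083A17Rik, the last 2 named after their values were seen.

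Over the 13604 genes well above background on all 8 wild type arrays, the median SD was 0.47 among cerulein arrays and 0.27 among saline arrays. The 4 cerulein arrays lie on 3 slides and 3 of the 4 saline arrays share slide 3, so the spread between animals and that between slides cannot be told apart. Over the 912 genes that rose, the median difference from the saline mean was 1.52, 2.01, 1.1 and 1.19 in cerulein animals 9 to 12. Over the 1039 that fell it was -1.04, -0.77, -1.41 and -1.46. The animal with the largest rise, 10, thus had the smallest fall, and it is the animal that shares slide 3 with 3 saline animals.

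The transgenic arrays gave a response of their own that shares no array with the wild type one, although they entered the wild type calls through the shared spread. Fitted alone and without slide, the 7 transgenic arrays had 963 called genes (5.55%). Their slides were uneven as well, since slide 2 held transgenic cerulein animal 16 and no saline array of either genotype. The part of slide in the agreement below was not tested. Of the 912 genes that rose in wild type mice, 905 had a positive difference there and 575 were called higher. Of the 1039 that fell, all had a negative difference there and 286 were called lower. The share of all genes with each sign, or called in each direction, is not given beside these counts. They therefore cannot be set against a background and give no measure of agreement. Atf3 differed by 9.75 in transgenic mice, Rcan1 by 6.8, Hbegf by 5.95, Sostdc1 by -3.63, Rab3a by -3.04 and Sel1l by -1.78. The difference between the genotypes' responses was called for 0 of 17338 genes (0%) by limma, with 134 at an unadjusted p below 0.05. Chance alone gives such a p in about 1 of 20 genes, so the 134 are fewer than chance would give. With slide as a block 1 gene was called (0.00577%), Alox12e, named after its values were seen. A p that misses the threshold does not show that the responses are alike.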

How the data were processed

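The members and gene lists were chosen with earlier results of these data known. Spot intensity was deposited by the authors as Agilent Feature Extraction 10.7.3.1 output, background-subtracted and detrended within each array per the file headers, and the deposited spot flags hold 0 or 1. The authors also deposited a series table on a log2 scale, found by setting it against the scanner values; how it was normalised is not given in the sources used here. No column of these tables lacked a sample.

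Unflagged spots of a probe were averaged, log2 taken, and the 75th percentile of 55681 probes subtracted per array. Probes well above background on 3 arrays were kept, and the brightest kept probe stood for its gene. Names came from 28685 RefSeq transcript probes, of which 27235 matched 1 symbol. limma 3.58.1 (R 4.3.3) fitted 4 group means to 15 arrays, leaving 11 residual degrees of freedom, with slide as a block in the alternative fit (9), Benjamini-Hochberg adjustment and a threshold of 0.05. The fit was tested on simulated data. Labels give 1 animal per array. The number of arrays limits the precision. Named genes were the 12 highest and 12 lowest with an official symbol, groups that do not overlap and no other probe of opposite sign, up to 4 members per list with the largest difference and those of opposite direction, Btc, Egfr, Erbb2, Erbb3 and Erbb4, and the 8 largest bounds; others are said to be chosen after their values were seen. Normexp used median spot signals in place of the planned mean signals. The other settings tried are in the closing section.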

Additional observations from a re-analysis of the deposited data

Results flagged for a closer look

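Within a group of 4 arrays, the highest or lowest value can lie far from the other 3. Of 356 groups of 4 (178 genes), 22 held such a value by Dixon's test, which chance alone gives in about 1 of 20 groups. Of the 22, 14 were in saline 5, the only saline array on slide 1, and slide and animal cannot be told apart there.

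In saline 5 the low values were Brd8 (-3.45), Cckar (5.24), Dusp7 (-0.48), Egfr (-0.47), Erlec1 (-0.4), Foxa2 (2.78), Gadd45g (1.87), Hsp90b1 (4.75), Klf6 (1.26), Sox9 (-0.82), Trp53inp1 (1.33) and Zyx (2.18). High values there were Fosb (2.28, others 1.52 to 1.65) and Hspa1a (-1.73, others -3.49 to -3.42). In saline 6, Atf3 (-3.22, others -3.96 to -3.85) and Nfil3 (1.85) were high and Egr1 (-2.38) was low. Among cerulein arrays, Gdf15 was high in cerulein 10 (4.15), Ccl7 (-1.06) and Tac1 (-3.64) were low in cerulein 11, and Nr4a3 (-3.75) and Sel1l (2.56) were low in cerulein 12.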

How the results depend on the processing

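Of the 912 genes that rose, the difference stayed positive for all in each alternative but normexp (851), the mean of a gene's probes (909) and the filter for probes above background on all arrays, which tested 756 of them. Of the 1039 that fell, it stayed negative for all but 7 with spike-in scaling (1032), 9 with the mean of probes (1030) and 1 with the authors' table (1038), and 972 were tested under that filter. The number called moved more than the direction. Without slide, 977 genes were higher. This became 2385 with slide as a fixed block, 2187 as a random block, 1838 in wild type arrays with slide, 438 with array medians, 3008 with spike-ins and 2551 with array weights. The 1448 lower genes became 770 in wild type arrays alone, 680 with slide there, 448 without slide 2, 2277 with normexp, 741 with array medians, 412 with spike-ins and 4547 with array weights. Leaving out 1 wild type array gave 702 to 1258 higher and 655 to 3181 lower, and in both fits together, an alternative chosen after seeing the data, 676 to 906 and 411 to 866. The genotype difference was called for 0 genes, and for 1 with slide. Of 176 named genes called in both fits, 110 were called under each fitted alternative that could test them and 171 kept their sign, which leaves out the values within a slide and arrays left out of the fit with slide. Signs turned for Adamts4 (-0.13), Cyp51 (-0.1), Il1r2 (-0.26) and Rel (-0.28) with normexp and for Smad5 (0.86) with the mean of its probes. The cause was not tested. No paired analysis was possible because the wild type groups share no replicate number. A gene above background on no array of a group has only a bound, and one above it on 1 or 2 arrays has a less certain difference.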
